A study of Homo sapiens with 36 samples.

Results

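H3K4me3 and H3K27ac, the 2 histone marks by which active promoters are most often recognised, were compared at the same places in A549 cells to see what lies where a place carries one mark, the other or both. Peaks of H3K4me3 (21589) and of H3K27ac (28190) on chromosomes 1 to 12 were used, 49779 of the 476964 peaks in the 16 peak lists of the series. Each of the 12573 protein-coding genes on these chromosomes was represented by the start of its canonical transcript in GENCODE release 44, and a start was classed by which mark had a peak within 1 kb. Both marks were present at 8420 starts (66.97%, 95% interval 66.1 to 67.8%), H3K4me3 alone at 370 (2.94%, 2.66 to 3.25%), H3K27ac alone at 166 (1.32%, 1.135 to 1.535%) and neither at 3617 (28.8%). Away from starts, overlapping peaks of the marks were merged, and the 19022 of 33066 merged regions that lay more than 1 kb from every annotated start were called distal. Of these, 9995 carried H3K27ac only (52.5%), 5720 H3K4me3 only (30.1%) and 3307 both (17.4%). The H3K27ac list was the longer, and with lists of equal length the order turned, with 5892 distal regions carrying H3K27ac only and 6279 H3K4me3 only.

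A549 is a line of human lung adenocarcinoma cells, and B2B (BEAS-2B) is a line of non-cancerous bronchial epithelial cells that served the study as its normal counterpart. DNA from formaldehyde-fixed cells, for which the labels name no treatment, was enriched by ChIP-seq, the sequencing of DNA pulled down with an antibody, for H3K4me3, H3K27ac, RNA polymerase II (pol II), Med1 and the Jun-family proteins JunB, Jun and JunD, with 2 replicates for each target. The authors merged the replicates before calling peaks, so that every value comes from a single pooled list, no replicate error can be given, and the intervals cover counting error only. The H3K27ac list of A549 reached no further than chromosome 13, which is why chromosomes beyond 12 were not analysed here. Each list is a single line grown in culture, and the read depth behind it was not stated.

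H3K4me3 is laid down around transcription starts by the SET1 and MLL methyltransferase complexes, which are drawn to unmethylated CpG-rich DNA, and the mark can be found at CpG-rich promoters that make little RNA. H3K27ac is laid down by the acetyltransferases p300 and CBP at active promoters and at active enhancers. Med1 is a subunit of Mediator, the complex that links transcription factors to pol II, and the Jun proteins are subunits of AP-1, a factor that binds the sequence TGACTCA.

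The kinds of DNA behind the classes with 1 mark are shown by the 200 bases before 3 starts (hg38, read in the direction of the gene, 5′ to 3′), with each CpG in capitals. VSNL1 (chr2:17540496-17540695, plus strand), a neuronal calcium sensor, carried H3K4me3 only and no pol II. ALDH1A1 (chr9:72953054-72953253, minus strand), a retinaldehyde dehydrogenase, carried H3K4me3 only together with strong pol II. LCN2 (chr9:128149253-128149452, plus strand), an iron-siderophore binding protein of epithelia and neutrophils, carried H3K27ac only.
VSNL1: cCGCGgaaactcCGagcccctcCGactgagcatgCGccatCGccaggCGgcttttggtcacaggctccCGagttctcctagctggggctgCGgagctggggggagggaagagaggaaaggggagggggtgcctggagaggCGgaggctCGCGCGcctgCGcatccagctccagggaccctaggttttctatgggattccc
ALDH1A1: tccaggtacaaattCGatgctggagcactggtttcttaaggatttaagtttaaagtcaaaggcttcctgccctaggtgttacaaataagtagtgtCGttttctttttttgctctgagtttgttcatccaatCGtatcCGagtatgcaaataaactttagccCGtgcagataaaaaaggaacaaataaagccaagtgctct
LCN2: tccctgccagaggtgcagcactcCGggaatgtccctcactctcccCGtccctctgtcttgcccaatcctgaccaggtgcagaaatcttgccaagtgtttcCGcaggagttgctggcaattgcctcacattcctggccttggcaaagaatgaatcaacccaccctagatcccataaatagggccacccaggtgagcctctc
The stretch before VSNL1 held 14 CpGs, while those before ALDH1A1 and LCN2 held 5 and 3. The AP-1 sequence TGACTCA occurred in none of these 3 stretches on either strand.

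Around the start of EPCAM, an epithelial adhesion molecule with both marks, the fold enrichment, the deposited ratio of the pileup at a summit to the local background, was 29.9 for H3K4me3, 41.2 for H3K27ac and 24.6 for pol II. Fold enrichment depends on the depth of each library and is compared here only within a list. The labelled cell type was checked against marker genes. Over all starts, 66.97% carried both marks, 2.94% H3K4me3 only, 1.32% H3K27ac only and 28.8% neither. Of 24 markers of A549 and epithelial cells, 15 carried both marks (62.5%), among them KRT8, KRT18, CLDN1 and DSP. Another 4 carried H3K4me3 only (16.7%), namely ALDH1A1, AKR1C1, AKR1C2 and AKR1C3, all with pol II. The other 5 carried neither (20.8%), among them CLDN4, GRHL2, SFTPB and SFTPC. The share with both marks was close to that of all starts and does not set these markers apart. None of 11 leukocyte markers carried both marks and 9 carried neither (81.8%), with H3K27ac only at CD14 and H3K4me3 only at IKZF1. Of 10 endothelial and fibroblast markers 7 carried neither (70%), TWIST1 alone carried both, and PDGFRA and KDR carried H3K4me3 only. Of 13 hepatocyte, muscle and erythroid markers 11 carried neither mark (84.6%), and FGA and CPS1 carried H3K4me3 only. Of 3 genes listed beside each other as deleted from A549, CDKN2A and CDKN2B carried neither mark. The third, MTAP, carried both marks at its start, which does not tell whether the rest of the gene is present.

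Starts with both marks were strongly marked. Median fold enrichment there was 35.9 for H3K4me3 (quartiles 28.8 and 41.9) and 61.9 for H3K27ac (38.2 and 84.2). At starts with H3K4me3 only the median was 8.17 (5.40 and 12.8), and at starts with H3K27ac only it was 6.58 (4.78 and 9.85). The strongest peak of each mark at starts with both was 2266 bp wide for H3K4me3 and 1284 bp wide for H3K27ac at the median, against 726 bp and 368 bp at starts with 1 mark. When the starts with H3K4me3 were ordered by its fold enrichment and divided into 5 groups of about equal size, 80.4% (78.5 to 82.2%) of the weakest group also had H3K27ac, against 99.3 to 99.8% of each stronger group. When the starts with H3K27ac were divided in the same way, 90.9% (89.5 to 92.2%) of the weakest group had H3K4me3, against 99.65 to 100% of the stronger ones. Classes with 1 mark thus came mainly from weak peaks, where a peak of the other mark may lie under the threshold of the caller.

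Median summit positions differed between the targets at starts with both marks. Quartiles (positive downstream) were 82 and 300 bp for H3K4me3, −90.25 and 207 bp for H3K27ac, and −116 and 49 bp for pol II. For Med1 they were −141 and 43 bp, and for Jun −227.8 and −7.25 bp. All these ranges but that of H3K4me3 overlapped one another. The strongest H3K4me3 summit lay 180 bp downstream of the start at the median and the H3K27ac summit 139 bp downstream, and 78.1% and 73.1% of these summits were on the downstream side. The pol II summit lay 22 bp downstream. Summits of Med1, JunB, Jun and JunD lay 53, 67, 85 and 77 bp upstream of the start, and only 33.7%, 35.5%, 23.4% and 27.6% of them were downstream. The marks thus peaked more often on the transcribed side and the Jun proteins more often on the side before the start.

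Pol II was found within 1 kb of 92.6% (92.0 to 93.2%) of starts with both marks, 22.7% (18.7 to 27.2%) of those with H3K4me3 only, 30.7% (24.2 to 38.1%) of those with H3K27ac only and 2.02% of those with neither, against 63.7% of all starts. Starts with both marks exceeded those with H3K4me3 only by 69.9 percentage points (Newcombe 95% interval 65.3 to 73.9). H3K27ac only exceeded H3K4me3 only by 8.02 points (0.0807 to 16.4), an interval that took in 0 when a −log10 q of at least 5 or a distance of 500 bp was required.

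Med1, the Mediator subunit, was found at 73.8% (72.8 to 74.7%) of starts with both marks, 5.95% (3.96 to 8.84%) with H3K4me3 only and 8.43% (5.09 to 13.7%) with H3K27ac only, against 49.7% of all starts. The difference between both marks and H3K4me3 only was 67.8 points (64.8 to 70.0). H3K27ac only and H3K4me3 only differed by 2.49 points, with an interval of −1.93 to 8.08 that took in 0.

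The Jun-family proteins, the subunits of AP-1, were also most frequent where both marks were present. At starts with both marks, JunB was found at 32.1% (31.2 to 33.2%), Jun at 38.0% (37.0 to 39.1%) and JunD at 19.8% (19.0 to 20.7%). Over all starts the shares of these proteins in the same order were 22.2%, 26.6% and 13.4%. With H3K4me3 only they were 5.95%, 10.8% and 1.89%, and with H3K27ac only 16.9%, 17.5% and 3.61%. H3K27ac only exceeded H3K4me3 only by 10.9 points for JunB (5.204 to 17.65) and by 6.66 points for Jun (0.494 to 13.7), and the interval for JunD (−1.04 to 5.88) took in 0. The interval for Jun also took in 0 when peaks had to lie within 500 bp.

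**Figure D1:**
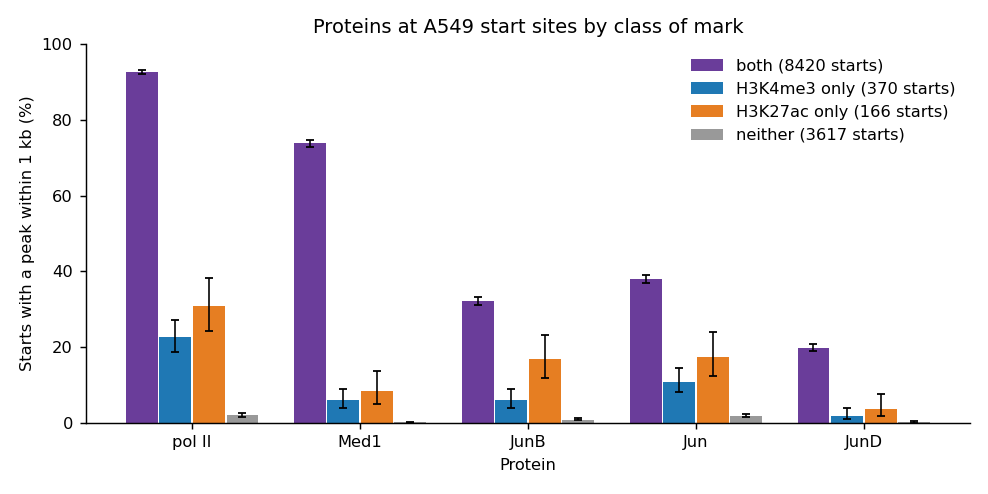
Share of A549 protein-coding starts with a peak of each protein within 1 kb, by the marks at the start. Bars are shares in percent and error bars are Wilson 95% intervals. Pol II reaches 92.6% where both marks are present and 22.7% and 30.7% where only H3K4me3 or only H3K27ac is.

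The strongest starts with both marks, ranked by the weaker of their percentiles in the 2 lists, were those of RNASEH1 with an unnamed gene at the same place (ENSG00000286905), DNAJB9, ATE1 and RAB2A. RNASEH1, a nuclease that removes RNA from hybrids with DNA, had a fold enrichment of 63.3 for H3K4me3, 150.4 for H3K27ac, 120.3 for pol II and 34.4 for Med1. DNAJB9, a chaperone of the endoplasmic reticulum, had 58.4, 147.4, 116.5 and 20.6 for the same targets. All 3 Jun proteins had a peak at each of these 5 starts, at a fold enrichment of 5.01 to 23.01. Over all starts with both marks, JunB was at 32.1%, Jun at 38.0% and JunD at 19.8%. RNASEH1 and the unnamed gene are not separate places in this count.

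Core machinery fell almost entirely among the starts with both marks, which made up 66.97% of all starts. Both marks were present at all 17 genes of Mediator subunits, all 7 of pol II subunits, all 16 of polycomb subunits, all 48 of cytosolic ribosomal proteins, all 19 of writers, readers and erasers of H3K4me3 and all 8 of those of H3K27ac. Of 31 cell cycle and replication genes 30 carried both, and CCND2, which encodes cyclin D2, carried H3K4me3 alone at a fold enrichment of 13.7 without pol II. KMT2A, one of the MLL methyltransferases, had 27.9 for H3K4me3, 22.0 for H3K27ac and 9.52 for pol II, below the lower quartile of each mark and of pol II at such starts. CHD1, a remodeller that binds H3K4me3, had 35.1 for H3K4me3, 147.4 for H3K27ac and 113.9 for pol II.

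All 30 immediate early and growth response genes carried both marks and pol II, 27 also Med1, 22 JunB, 24 Jun and 16 JunD. Over all starts 66.97% carried both marks, and the shares with these proteins were 63.7%, 49.7%, 22.2%, 26.6% and 13.4%. TRIB1, a pseudokinase that steers protein degradation, had the strongest JunB peak among all starts with both marks, at a fold enrichment of 70.1, with 69.3 for Jun and 24.96 for JunD. KLF6 had 22.4 for JunB, 68.4 for Jun and 11.6 for JunD. EGR2, EGR3 and PLAU carried both marks and pol II but no Med1 or Jun-family peak within 1 kb.

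Of 17 genes of AP-1 and related factors 16 carried both marks, and all 17 had pol II, against 66.97% and 63.7% of all starts. JUN had a fold enrichment of 40.6 for H3K4me3, 142.4 for H3K27ac, 90.4 for pol II and 47.5 for Jun at its own start. FOSL1 and FOSL2, the Fos-family partners, had 43.0 and 37.2 for H3K4me3, 94.98 and 87.2 for H3K27ac and 43.5 and 48.4 for Jun. BATF2 was the exception, with H3K27ac alone at 6.81 and a weak pol II peak at 5.43.

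Of the genes whose tracks the study describes in its main text, HSP90AB1, SDHAF2, EGFR, KLF6 and FGFR1 carried both marks. HSP90AB1, a heat shock chaperone, had 36.0 for H3K4me3, 118.4 for H3K27ac and 115.0 for pol II, and EGFR had 41.7, 76.9 and 42.1 with Med1 at 9.88 and no Jun-family peak within 1 kb. POU5F1 had no peak of any of the 7 targets within 1 kb. The paper reports raised POU5F1 transcription in A549 and a distant upstream enhancer with Pol II, Med1 and AP-1, which lies outside this window. Of 394 oncogenes of the study found on these chromosomes, 83.8% (79.8 to 87.1%) carried both marks, 4.31% (2.71 to 6.80%) H3K4me3 only and 0.508% H3K27ac only, and the 12179 other genes had 66.4% (65.6 to 67.3%), 2.90% and 1.35%. Of the 17 oncogenes with H3K4me3 only, 9 were CpG-rich and 1 had pol II, against 40.5% and 22.7% of all 370 starts of this class. Whether these few genes differ from the class was not tested.

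Base composition separated the classes. A start was called CpG-rich where the 1 kb around it had a GC content of at least 50% and a ratio of observed to expected CpG of at least 0.6. Of all starts 64.9% were CpG-rich, and the shares by class were 89.8% (89.2 to 90.4%) with both marks, 40.5% (35.7 to 45.6%) with H3K4me3 only, 18.7% (13.5 to 25.3%) with H3K27ac only and 11.6% with neither. H3K4me3 only exceeded H3K27ac only by 21.9 points (13.7 to 29.1). Starts with H3K27ac only were nevertheless rich in GC, with a median of 60.3% and a CpG ratio of 0.280, whereas those with H3K4me3 only had medians of 52.3% and 0.567.

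The starts with H3K4me3 only were of 2 kinds, a split chosen after their values were seen. Among the 150 CpG-rich ones, 1 had pol II (0.667%, 0.118 to 3.68%), none had Med1, which by a limit of 3 counts allows a share of up to 2%, and 2 had Jun. Among the 220 CpG-poor ones, 83 had pol II (37.7%, 31.6 to 44.3%), 22 had Med1 (10.0%, 6.70 to 14.7%) and 38 had Jun (17.3%, 12.8 to 22.8%). The CpG-poor starts exceeded the CpG-rich ones by 37.1 points for pol II (30.2 to 43.6), by 10.0 points for Med1 (5.86 to 14.7) and by 15.9 points for Jun (10.4 to 21.6). At starts with both marks the order was turned round, with pol II at 93.2% (92.6 to 93.8%) of CpG-rich and 87.4% (85.0 to 89.5%) of CpG-poor starts.

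The CpG-rich kind was led by DDX25, a testis RNA helicase, at an H3K4me3 fold enrichment of 37.0, followed by SCRT1, a neuronal repressor, at 25.5, RAB3C, a vesicle protein of neurons, at 22.8, LINGO2 at 20.9 and VSNL1 at 18.98. None of these had pol II, Med1 or a Jun-family peak within 1 kb. PCDH10, a protocadherin of the nervous system, was the single CpG-rich member with pol II, at 16.6. In the list of 116 homeobox and other developmental transcription factors, 76 carried both marks (65.5%, against 66.97% of all starts), 9 H3K4me3 only (7.76%, against 2.94%) and 31 neither (26.7%, against 28.8%). Of those 9, 7 were CpG-rich and none had pol II, against 40.5% and 22.7% of all 370 starts with H3K4me3 only. Among the CpG-rich, DLX5 had an H3K4me3 fold enrichment of 8.17 and HOXD4 one of 6.65, and among the CpG-poor, HOXC6 had 22.8 and FOXP2 6.48. In the list of 20 neuronal genes 5 carried H3K4me3 only (25%, against 2.94% of all starts), namely STMN2 at 17.7, NEUROD1 at 9.62, GABRB2 at 8.76, GRIA2 at 8.46 and KCNC2 at 6.37, of which NEUROD1 and GRIA2 were CpG-rich. No pol II peak lay at any of these 5, beside 22.7% of all starts with H3K4me3 only. Whether the developmental or neuronal genes differ from the class in this was not tested. Both marks and pol II were present at INA, SYT1, NEFM, NEFL and GRIN2B.

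Some genes of the CpG-poor kind had strong pol II. Of the 84 starts with H3K4me3 only and pol II, 83 were CpG-poor. Median pol II fold enrichment over these 84 was 12.1 (quartiles 6.41 and 32.8). At starts with both marks and pol II it was 47.0 (26.7 and 69.4). ANXA1, a phospholipid-binding protein, had an H3K4me3 fold enrichment of 27.8 and pol II at 75.4. ALDH1A1 had 16.7 for H3K4me3, 65.6 for pol II and 15.7 for Med1. The aldo-keto reductases AKR1C1, AKR1C2 and AKR1C3 had 19.7, 24.9 and 31.05 for H3K4me3, 57.3, 52.4 and 41.3 for pol II and 13.4, 17.9 and 9.78 for Med1. They are related genes of similar sequence, so that reads may have been shared among them, which was not tested. CXCL8, a neutrophil chemokine, had a weak H3K4me3 peak at 8.17 with 47.5 for pol II, 8.86 for Med1, 13.8 for JunB, 34.1 for Jun and 7.31 for JunD. Others with strong pol II were CCDC80 at 60.03, PDE7B at 59.2, TCIM at 58.2, DNAJB4 at 54.5, F2RL2 at 49.2 and TLR6 at 47.6. These genes, apart from those in the marker and chemokine lists, were chosen after their pol II values were seen, as were the leading CpG-rich genes after their H3K4me3 values. For ANXA1 an H3K27ac peak at 15.0 lay 2607 to 2858 bp downstream of the start, and for AKR1C3 one at 5.12 lay 1873 to 2053 bp downstream, while ALDH1A1 and CXCL8 had none within 6 kb.

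**Figure D2:**
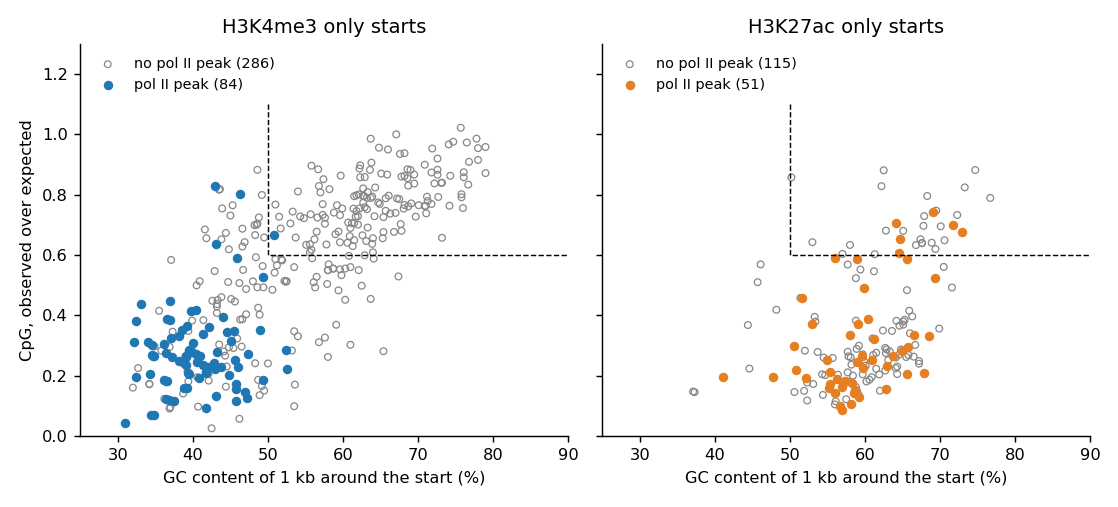
Each point is a start with H3K4me3 only (left) or H3K27ac only (right), placed by the GC content of the 1 kb around it (x axis, percent) and its ratio of observed to expected CpG (y axis), and filled where a pol II peak lies within 1 kb. The dashed line bounds the CpG-rich corner, which holds 1 of the 84 filled points on the left and 6 of the 51 on the right.

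The starts with H3K4me3 only and pol II were poor in GC, with a median of 39.9% (quartiles 37.0 and 43.9%), and GC content moved with the presence of H3K27ac over all starts with pol II. Where the GC content was under 40%, 55 of 58 starts with pol II had H3K4me3 (94.8%, 85.9 to 98.2%) and 12 had H3K27ac (20.7%, 12.3 to 32.8%). From 40 to 45% the shares were 90.9% for H3K4me3 and 62.3% (51.2 to 72.3%) for H3K27ac, from 45 to 50% they were 95.3% and 89.2%, and in every band above 50% both lay between 97.7 and 99.6%. Among starts with H3K4me3, H3K27ac was present at 18.8% (11.7 to 28.7%) under 40% GC and at 96.3 to 98.2% in the bands above 50%. In B2B the same shares were 3.85% (1.06 to 12.98%) under 40% GC and 93.02 to 97.4% above 50%. Distal H3K27ac summits of A549 had a median GC content of 59.2% over 100 bp to each side, against 48.8% for H3K4me3, 48.3% for pol II, 43.3% for Med1 and 42.8%, 42.3% and 41.8% for JunB, Jun and JunD. Whether the H3K27ac libraries recovered DNA poor in GC less well was not tested, so that a missing H3K27ac peak at starts such as ALDH1A1, ANXA1 and the AKR1C genes cannot be read as absence of the mark. Among starts of 50 to 60% GC, pol II was at 94.2% of those with both marks, 40.3% with H3K27ac only and 4.17% with H3K4me3 only, a band chosen after the data were seen.

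**Figure D3:**
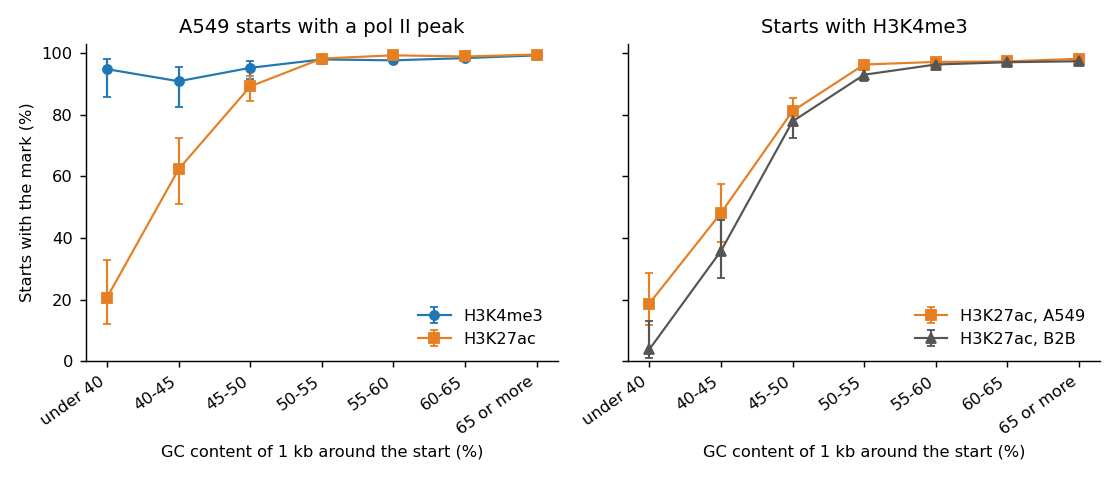
Share of starts with a mark (y axis, percent) by the GC content of the 1 kb around the start (x axis, percent), with Wilson 95% intervals. Left, H3K4me3 and H3K27ac at A549 starts with pol II; right, H3K27ac at starts with H3K4me3 in A549 and in B2B. H3K27ac falls to 20.7% of pol II starts under 40% GC, where H3K4me3 stays at 94.8%.

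The 5 strongest starts with H3K4me3 only by fold enrichment were all CpG-poor. ENSG00000257390 (49.2), LPXN (48.3), ENSG00000291315 (46.7), CREB5 (45.02) and TRIM39-RPP21 (41.3) led the class. CREB5 had pol II at 68.8 and ENSG00000291315 at 9.79, and the others had no pol II peak within 1 kb. At LPXN, a focal adhesion adaptor, the H3K4me3 peak ran from −5347 to −821 bp relative to the start, and within it an H3K27ac peak at 123.7 ran from −4218 to −1719 bp. At CREB5 an H3K27ac peak at 102.6 ran from −4451 to −1816 bp and a weaker one at 15.9 from −1690 to −1430 bp. LPXN and CREB5 thus stood at the edge of a stretch with both marks. Over the class, 10.5% (7.81 to 14.1%) had H3K27ac within 2 kb and 17.6% (14.03 to 21.8%) within 5 kb, and for 18.6% another annotated start of the same gene carried both marks. The nearest H3K27ac peak was 39752 bp away at the median. The 1 kb limit placed GJA1, with an H3K27ac peak 997 bp away, among both, and LINGO2, with one 1004 bp away, among H3K4me3 only.

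Starts with H3K27ac only were led by S100A2, a calcium-binding protein of epithelia, with a fold enrichment of 88.4 for H3K27ac, 62.6 for pol II, 22.4 for Med1, 58.2 for JunB, 58.99 for Jun and 13 for JunD. TMEM88B (68.1), SLC49A3 (60.4) and SCYGR1 (50.7), one of a family of like copies, were also among the 5 strongest, and TMEM88B had none of the 5 proteins within 1 kb. LCN2 had 38.3 for H3K27ac, 15.1 for pol II, 6.38 for Med1 and 9.66 for Jun. KPNA7, an importin, had 27.9 for H3K27ac with 27.3 for pol II, 33.4 for JunB and 76.2 for Jun. CD14, a receptor for bacterial lipopolysaccharide, had 17.3 for H3K27ac, 12.3 for JunB and 16.2 for Jun with pol II at only 4.18. IL6 had H3K27ac at 3.903 and none of the 5 proteins. LCN2 and KPNA7 were chosen after their pol II values were seen. For this class H3K4me3 lay within 2 kb of 8.43% (5.09 to 13.7%) and within 5 kb of 33.7% (26.98 to 41.2%) of starts. At S100A2 weak H3K4me3 peaks at 5.69 and 3.87 lay at −2797 to −2233 bp and at −2170 to −2002 bp.

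**Figure D4:**
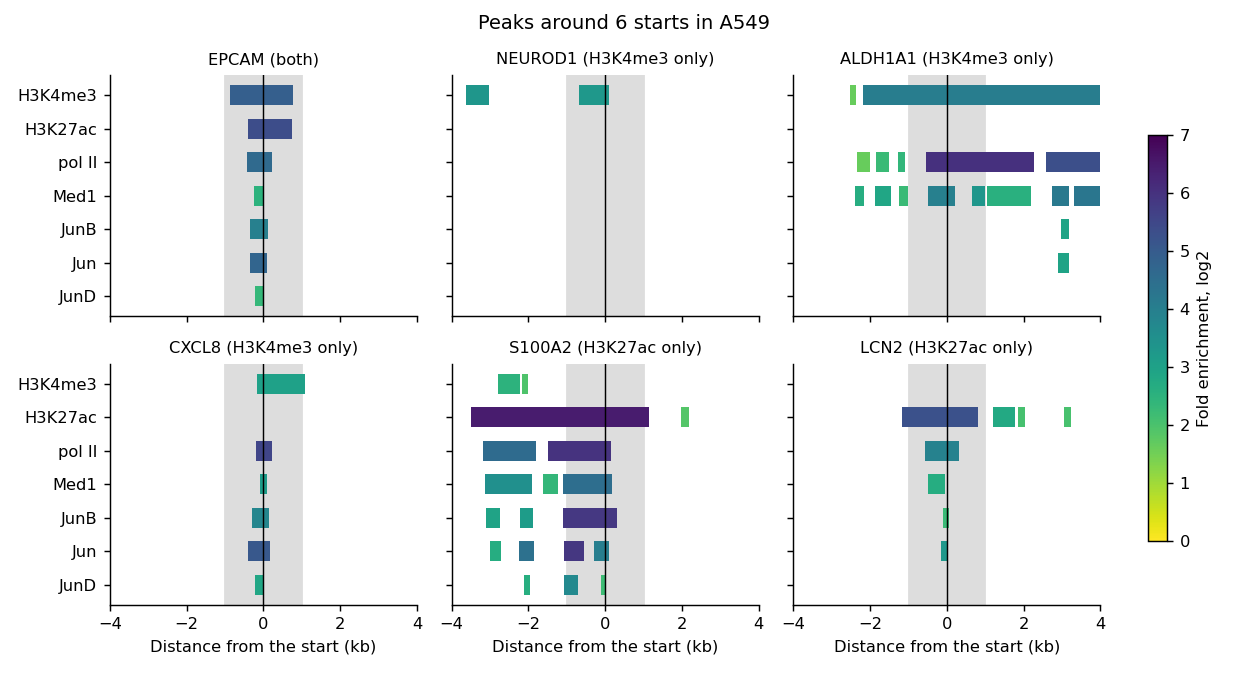
Peaks of the 7 targets in A549 around 6 starts, by distance from the start in kb in the direction of the gene (x axis), coloured by fold enrichment on a log2 scale, with the 1 kb to each side shaded. ALDH1A1 and CXCL8 show pol II and Med1 with H3K4me3 and no H3K27ac, S100A2 and LCN2 show them with H3K27ac and no H3K4me3 in the shaded part, and NEUROD1 shows H3K4me3 alone.

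Chemokine and interleukin genes were spread over all the classes. Of 18, 6 carried both marks, 2 H3K4me3 only (CXCL8 and CXCL12), 1 H3K27ac only (IL6) and 9 neither, which is 33.3%, 11.1%, 5.56% and 50% beside 66.97%, 2.94%, 1.32% and 28.8% of all starts. CXCL2, a neighbour of CXCL8 on chromosome 4, had 32.0 for H3K4me3, 137.5 for H3K27ac, 92.0 for pol II and 25.1 for Jun. CXCL12 was CpG-rich, with H3K4me3 at 6.999 and no other target. Of 178 ZNF zinc finger genes 151 carried both marks (84.8%, against 66.97% of all starts), 3 H3K4me3 only (1.69%) and 24 neither (13.5%). Of 343 olfactory receptor genes 341 carried neither (99.4%, against 28.8% of all starts). Of 69 replication-dependent histone genes, whose sequences are alike enough to share reads, 56 carried both marks (81.2%, against 66.97% of all starts), H3C4 H3K4me3 only and H3C8 H3K27ac only.

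Sequence motifs in the promoter, taken as 250 bases before to 50 after the start and searched on both strands, also differed. The box GGGCGG, which the factor SP1 binds, was in 77.2% (76.3 to 78.1%) of promoters with both marks, 41.1% with H3K4me3 only, 46.99% with H3K27ac only and 59.6% of all. The letters TATAAA were in 5.18% (4.72 to 5.67%) of promoters with both marks, 14.9% (11.6 to 18.8%) with H3K4me3 only, 10.8% (6.97 to 16.5%) with H3K27ac only and 10.4% of all. The AP-1 sequence TGACTCA was in 2.35% (2.05 to 2.70%), 4.05% (2.47 to 6.58%) and 10.8% (6.97 to 16.5%) of these classes in turn and in 3.75% of all. Promoters with neither mark held GGGCGG in 21.2%, TATAAA in 22.2% (20.9 to 23.6%) and TGACTCA in 6.64% (5.87 to 7.49%). TATAAA was thus most frequent where no mark was present. The site TGACGTCA, bound by CREB and ATF factors and holding no TGACTCA, was in 3.46% of promoters with both marks, 2.43% with H3K4me3 only and 2.61% of all, and in 0 of 166 with H3K27ac only, which by the limit of 3 counts allows a share of up to 1.81%. With neither mark it was in 0.774%. The classes also differed in median GC content around the start, at 64.2% with both, 52.3% with H3K4me3 only, 60.3% with H3K27ac only and 48.2% with neither. The part of GC content in these motif shares was not tested.

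Distal regions with both marks differed from those with 1 mark in size and in strength. Their median length was 717 bp, against 291 bp with H3K27ac only and 284 bp with H3K4me3 only, and the strongest summits of the marks lay 71 bp apart at the median. Median fold enrichment of H3K27ac was 12.04 with both marks and 6.61 alone, and that of H3K4me3 was 7.29 and 4.87. Median GC content was 56.0% with both, 58.6% with H3K27ac only and 42.9% with H3K4me3 only. Regions with H3K27ac only often lay in clusters, since 55.1% (54.2 to 56.1%) had another distal region within 1 kb, against 37.0% (35.7 to 38.2%) with H3K4me3 only and 34.5% (32.9 to 36.2%) with both. Protein-coding gene bodies held 58.6% of regions with H3K27ac only, 58.4% with H3K4me3 only and 42.8% with both. The nearest protein-coding start carried both marks for 81.8%, 75.98% and 75.1% of them.

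For each distal class, the region with the highest summed Jun-family fold enrichment was taken. Shown are 151 bases centred on the summit of its strongest JunB peak (hg38, plus strand, 5′ to 3′), with TGACTCA and its reverse complement TGAGTCA in capitals. The region with both marks lies in an intron of DVL1 and holds the stretch shown (chr1:1344946-1345096). The region with H3K27ac only (chr10:33134367-33134851) lies between genes with ITGB1, an integrin subunit, as the nearest, and the stretch shown is chr10:33134180-33134330. The region with H3K4me3 only (chr10:68153386-68153613) lies in an intron of MYPN, and the stretch shown is chr10:68153691-68153841. At ITGB1 and MYPN the stretch lies beside the marked region, which itself held no AP-1 motif.
DVL1: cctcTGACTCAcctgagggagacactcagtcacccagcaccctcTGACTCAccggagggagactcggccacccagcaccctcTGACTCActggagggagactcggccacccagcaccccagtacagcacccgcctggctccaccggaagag
ITGB1: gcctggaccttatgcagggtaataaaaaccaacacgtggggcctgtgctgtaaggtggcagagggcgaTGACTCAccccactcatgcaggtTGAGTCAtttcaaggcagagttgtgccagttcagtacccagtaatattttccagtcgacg
MYPN: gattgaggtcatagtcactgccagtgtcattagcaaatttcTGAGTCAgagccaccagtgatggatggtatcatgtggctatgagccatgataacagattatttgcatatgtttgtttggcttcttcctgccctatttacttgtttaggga
The DVL1 stretch held 3 copies of the motif in a repeated sequence, the ITGB1 stretch 2 and the MYPN stretch 1. Fold enrichment of JunB, Jun and JunD was 55.9, 79.8 and 20.1 at DVL1, 56.1, 80.2 and 24.4 at ITGB1 and 35.4, 90.4 and 15.0 at MYPN. At MYPN, where the H3K4me3 peak was weak (4.10), the JunB summit lay 153 bp outside the marked region, and at ITGB1, where H3K27ac was 17.15, 112 bp outside it. The marks at DVL1 had 6.56 for H3K4me3 and 30.04 for H3K27ac. Another region with H3K27ac only reached an exon of SSUH2, with 26.6 for H3K27ac, 60.5 for JunB, 72.97 for Jun and 21.1 for JunD.

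Pol II overlapped 67.3% (65.6 to 68.8%) of distal regions with both marks, 25.7% (24.9 to 26.6%) with H3K27ac only and 28.8% (27.7 to 30.03%) with H3K4me3 only, against 33.9% of all distal regions. Med1 overlapped 35.9% (34.2 to 37.5%), 11.8% (11.2 to 12.5%) and 8.01% (7.33 to 8.74%) of these classes, against 14.9% of all. Regions with both marks exceeded those with H3K27ac only by 41.5 points for pol II (39.7 to 43.3) and by 24.03 points for Med1 (22.3 to 25.8). Since these regions were also longer, peaks were counted in 1 kb around the strongest H3K27ac summit, or the H3K4me3 summit where there was none. The shares for both marks and for H3K27ac only were then 68.4% and 37.9% for pol II and 36.9% and 18.3% for Med1.

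JunB overlapped 30.1% (28.6 to 31.7%) of regions with both marks, 15.9% (15.2 to 16.6%) with H3K27ac only and 18.5% (17.5 to 19.5%) with H3K4me3 only, against 19.2% of all. Jun overlapped 33.02%, 15.5% and 23.6%, against 21% of all, and JunD 14.6%, 3.65% and 5.56%, against 6.13% of all. All 3 Jun proteins were present in 13.5% (12.4 to 14.7%) of regions with both marks, 3.52% (3.178 to 3.901%) with H3K27ac only and 5.37% (4.81 to 5.98%) with H3K4me3 only. Both marks exceeded H3K27ac only by 14.2 points for JunB (12.5 to 15.96), 17.5 points for Jun (15.7 to 19.3) and 10.95 points for JunD (9.73 to 12.3). In the 1 kb windows JunB was in 30.9% of regions with both marks and 27.4% with H3K27ac only, Jun in 34.6% and 29.9%, and JunD in 16.3% and 8.62%.

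The order of the 2 classes with 1 mark depended on how they were counted. In the merged regions the share with H3K27ac only minus that with H3K4me3 only was −3.10 points for pol II (−4.56 to −1.66), −2.60 points for JunB (−3.84 to −1.37), −8.06 points for Jun (−9.37 to −6.75), −1.91 points for JunD (−2.62 to −1.22) and 3.83 points for Med1 (2.87 to 4.77). In the 1 kb windows H3K27ac only was ahead by 3.48 points for pol II (1.92 to 5.03) and 4.37 points for JunB (2.96 to 5.76), and the intervals for Jun and JunD took in 0. Among regions of 45 to 55% GC, a band chosen after the data were seen, H3K27ac only was ahead for all 5 proteins, by 9.09 points for pol II, 17.9 for Med1, 8.50 for JunB, 7.59 for Jun and 3.76 for JunD. Of the 5 proteins, Med1 was thus the one for which H3K27ac only was ahead in all 6 ways of counting that are plotted.

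**Figure D5:**
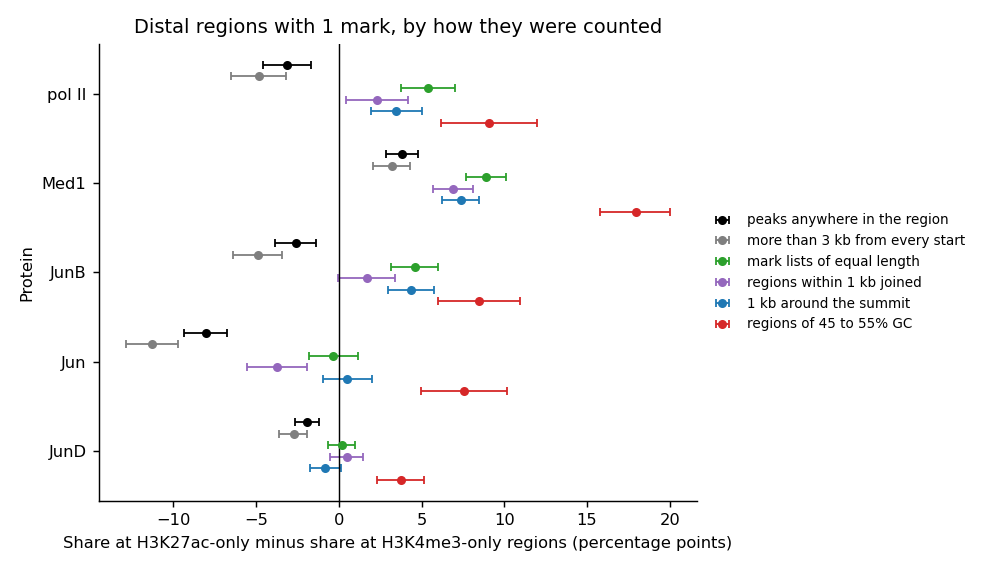
Difference between the shares of distal regions with H3K27ac only and with H3K4me3 only that hold a peak of each protein (x axis, percentage points, with Newcombe 95% intervals), for 6 ways of counting. Values right of the line at 0 are higher with H3K27ac only; pol II runs from −3.10 points in the merged regions to 9.09 points among regions of 45 to 55% GC, while Med1 stays right of 0.

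Pol II and JunB were more frequent at stronger H3K27ac and about as frequent at weak as at strong H3K4me3. In the weakest of 5 groups of regions with H3K27ac only, 14.02% (12.6 to 15.6%) held pol II and 5.59% (4.66 to 6.68%) JunB, and in the strongest 54.6% (52.4 to 56.8%) and 39.3% (37.1 to 41.4%). In the weakest of 5 groups with H3K4me3 only, 31.7% (29.1 to 34.5%) held pol II and 18.4% (16.3 to 20.8%) JunB, and in the strongest 31.9% (29.2 to 34.7%) and 16.9% (14.9 to 19.3%). Median length rose in both classes, from 218 bp in the weakest group to 509 bp and 553 bp in the strongest. Of regions with both marks, 98.3% (97.04 to 99.1%) of the strongest group by H3K27ac held pol II, against 35.2% (31.7 to 38.9%) of the weakest.

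The AP-1 motif was found in 19.2% (17.9 to 20.6%) of distal regions with both marks, 8.57% (8.04 to 9.14%) with H3K27ac only and 8.74% (8.04 to 9.50%) with H3K4me3 only, against 10.5% of all. In stretches of the same length 5 kb to each side it was in 12.8%, 6.36% and 5.18%. The excess of both marks over H3K27ac only, 10.7 points (9.23 to 12.1), turned to −3.68 points (−5.37 to −1.95) in windows of 1 kb, where the shares were 24.5% and 28.1%. Within 50 bp of JunB summits in these regions the motif was found for 49.8% (46.8 to 52.8%) with both marks, 53.1% (49.96 to 56.2%) with H3K4me3 only and 61.5% (59.0 to 63.9%) with H3K27ac only, against 1.56 to 1.88% in stretches 5 kb away. For JunB summits near starts with both marks it was 15.96% (14.7 to 17.4%). Near starts with H3K27ac only it was 59.3% (40.7 to 75.5%, 16 of 27 summits), and near starts with H3K4me3 only 50% (31.4 to 68.6%, 12 of 24 summits).

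Individual regions showed the same spread. The strongest with H3K27ac only lay on chromosome 10 at 46522057 to 46529064, 31.1 kb from the start of GPRIN2, with 111.5 for H3K27ac, 64.8 for pol II and 60.4 for Med1; near-identical copies of this sequence lie nearby, so that its reads may be shared. On chromosome 10 at 71860128 to 71861661, 9.64 kb from the start of PSAP, which encodes a precursor of lysosomal activator proteins, H3K27ac was 81.4, pol II 63.3 and Med1 20.2. On chromosome 1 at 236096872 to 236097534, 32.1 kb from the start of NID1, a basement membrane protein, H3K27ac was 76.2 and Med1 60.3 with pol II at 16.1. The strongest with H3K4me3 only, near PTP4A1 on chromosome 6 (36.8), near SCAND3 on chromosome 6 (33.9) and near NFE2L3 on chromosome 7 (30.4), were 25.9, 142.1 and 289.8 kb from those starts. They had pol II at 13.6, 6.82 and 13.8 and GC contents of 42.7%, 42.5% and 45.8%. The strongest with both marks reached exons of PRR7 and ADAM8 or lay near the end of chromosome 1, where copies of the sequence also exist, with 52.99, 58.03 and 62.99 for H3K4me3 and 115.8, 125.6 and 125.0 for H3K27ac. Pol II there was 88.6, 41.6 and 85.2.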

How the data were processed

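ChIP-seq peak lists of A549 and B2B were used, 10 of 16 (7 of A549 and H3K4me3, H3K27ac and CTCF of B2B). The authors aligned reads to hg38, merged the 2 replicates of each target and called peaks; the submitters' processing notes name Bowtie2 2.4.4, SAMtools 1.13 and MACS2 2.2.7.1. Options of the caller and its control are not given in the sources used here. The fold enrichment of each peak is the ratio deposited by the authors. Its significance was deposited as −log10 p and −log10 q values, none of the latter below 2. No value was rescaled.

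Peaks were intersected in Python 3.11.15 with NumPy 2.4.6 and pandas 2.3.3 at a minimum overlap of 1 bp, checked against bedtools 2.31.1 on simulated data. Shares have Wilson 95% intervals (SciPy 1.17.1) and differences Newcombe 95% intervals; a difference was called where its interval left out 0. Neighbouring regions are not independent, so that these intervals are too narrow. The reference is hg38 with GENCODE release 44, the build of the lists, read with pysam 0.24.0.

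Named were, by rule, the 5 strongest starts and 3 strongest distal regions of each class, the 2 distal regions of each class with the highest summed Jun-family fold enrichment, lists of up to 30 genes in full and 4 genes a class of longer ones, and the genes whose tracks the study describes; of these, values are given for examples. Some items that these rules name are not reported here. The members, lists and rules were chosen with earlier results of these data known. Of 618 oncogene symbols, 394 matched a gene on chromosomes 1 to 12, 9 of them through an older symbol. The number of symbols is larger than the number of oncogenes that the paper states, and the difference was not traced. The alternatives were a −log10 q of at least 5, mark lists of equal length, other distances, stricter overlap, any start of the gene, windows of 1 kb and regions without 1 Mb bins lacking a start. Joined regions and bands of GC content were added after seeing the data.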

Additional observations from a re-analysis of the deposited data

How the results depend on the processing

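No paired analysis was possible because the replicates of each target had been merged before peaks were called, so that no list carries a replicate number, and for the same reason none could be left out. Of 202 values of 6 class counts and 24 differences under the alternatives, 171 kept their direction and their side of 0 or stayed within 1.5 times the count. Differences between both marks and 1 mark kept theirs under every alternative tried, except the AP-1 motif in 1 kb around the summit (−3.68 points, both minus H3K27ac only). With mark lists of equal length, starts with H3K27ac only fell to 93 and distal regions with it to 5892, while starts with H3K4me3 only came to 513 and distal regions with it to 6279, so that the distal order reversed. Joining regions within 1 kb gave 3254 distal regions with H3K4me3 only and 5409 with H3K27ac only. The remaining changes concern H3K27ac only minus H3K4me3 only, in percentage points. At starts, pol II was 5.64 at a −log10 q of at least 5 and 6.13 within 500 bp, and Jun 1.17 within 500 bp, all with intervals that took in 0. Med1 was 5.98 with lists of equal length and 12.5 among starts of 50 to 60% GC, and JunD 3.04 at the stricter q, 4.70 with lists of equal length and 6.94 among starts of 50 to 60% GC, all with intervals above 0. In distal regions, lists of equal length gave 5.39 for pol II, 4.57 for JunB, 2.29 for the AP-1 motif, 0.171 for JunD and −0.341 for Jun. Windows of 1 kb gave 3.48, 4.37, 3.93, −0.816 and 0.507 for the same items. Joined regions gave 2.32 for pol II, 1.71 for JunB, 0.489 for JunD and 3.65 for the motif. Regions of 45 to 55% GC gave 9.09 for pol II, 7.59 for Jun, 8.50 for JunB and 3.76 for JunD. The cause was not tested.

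Without replicates or read depths, absence of a peak cannot be told from a signal below the threshold of the caller, and classes with 1 mark consist mainly of weak peaks. Classes are those of pooled lists of 1 line.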

Other observations

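Starts of long non-coding RNAs, which are transcripts without a protein product, were classed in the same way. Of 11907 canonical lncRNA starts, 2968 carried both marks (24.9%, 24.2 to 25.7%), 284 H3K4me3 only (2.39%), 272 H3K27ac only (2.28%) and 8383 neither (70.4%). Those near a protein-coding start were kept, so that a mark may belong to the coding promoter. How often this was so was not tested.

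In B2B, 82.8% (81.9 to 83.6%) of the starts with both marks in A549 carried both marks as well. Of the 370 starts with H3K4me3 only, 95 had H3K4me3 only in B2B (25.7%, 21.5 to 30.4%), 34 had both marks, 5 H3K27ac only and 236 neither. Of the CpG-rich ones among them 8.67% (5.13 to 14.3%) had H3K4me3 only in B2B and 82.7% (75.8 to 87.9%) neither mark, and of the CpG-poor ones 37.3% (31.1 to 43.8%) and 50.9% (44.3 to 57.4%). ANXA1 and AKR1C3 had H3K4me3 only in both lines, while ALDH1A1, AKR1C1, AKR1C2, CXCL8 and NEUROD1 carried neither mark in B2B. Of the 166 starts with H3K27ac only, 55 had H3K27ac only in B2B (33.1%, 26.4 to 40.6%), S100A2 among them, and IL6, outside that count, carried both marks there.

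Of distal regions with H3K27ac only, 25.8% (24.9 to 26.6%) had an H3K27ac peak in B2B and 0.510% an H3K4me3 peak. Of those with H3K4me3 only, 15.1% (14.2 to 16.04%) had H3K4me3 in B2B and 1.43% H3K27ac. CTCF, an insulator protein used here as measured in B2B, overlapped 39.9% (38.2 to 41.6%) of distal A549 regions with both marks, 21.2% (20.2 to 22.3%) with H3K4me3 only and 13.3% (12.7 to 14.01%) with H3K27ac only. Regions with both marks were also the longest, and the part of length in this order was not tested.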
